A study of Rattus norvegicus with 4 samples.

Results

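The right striatum of rats whose left striatum had been irradiated was compared with the right striatum of control rats, on 2 of the 4 arrays of the study. The 2 arrays were chosen by their labels, which name the right side, and the other 2 arrays compare the irradiated left striatum with the control left striatum. The rats were adult male Wistar rats, 4 in the study. The un-irradiated right striata came from rats in which a Leksell gamma knife, a device that focuses gamma rays on a small target from outside the head, had given the left striatum a central maximum of 60 Gy over 30 min through a 4 mm collimator. The control right striata came from rats given no irradiation per the labels. The labels describe pentobarbital anaesthesia (40 mg/kg) and a stereotactic frame for the irradiation, and brains taken 16 h after it. Whether control rats were also anaesthetised and framed, how many rats stand behind each RNA and whether RNA was pooled are not stated in the labels. The right striatum lay outside the target, and its own dose is not stated.

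Both RNAs were labelled with different dyes and hybridised together to a 2-colour Agilent rat array. The experimental RNA was in Cy5 on array 1 and in Cy3 on array 2. Both arrays carry the same replicate number, so they count as 1 replicate, a dye swap of the same RNA pair. With 1 replicate no test between animals is possible, and neither p-values nor standard deviations appear below. Values are log2 of un-irradiated right over control right, given for arrays 1 and 2 in that order, then as their mean. The figure after ± is how far each array lies from that mean and is a technical spread. A positive value means higher in the right striatum of irradiated rats. Genes called higher or lower below passed 1.5-fold (a log2 ratio of 0.585) on each of the 2 arrays with the same sign. The values are ratios and not levels, so the presence of striatal transcripts could not be checked by their brightness.

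The direction of the deposited ratios is not stated with the values, and it bears on every result. As deposited, the 2 right arrays correlated at r = 0.666 across 43628 features with a rank correlation of 0.260, which could come from a dye effect or from values that had already been turned to the same direction. Among the 5654 genes that more than 1 probe measures, probes of the same gene correlated at 0.0858 when array 2 was given the opposite sign and at 0.0460 when it was not. With the sign turned, 5 of these genes had probes past the threshold in opposite directions, against 26 with at least 2 probes past it in 1 direction and none in the other. Without turning, 33 genes had opposed probes, 45 had 2 or more upward and 12 had 2 or more downward. On the left arrays, probes of the same gene correlated at 0.157 with the sign turned and at 0.0461 without. There 3 genes had opposed probes with turning, beside 22 upward and 13 downward, and 16 without, beside 39 and 13. The values were therefore read as red over green and array 2 was turned, a choice that rests on a small difference on the right side. Under the other reading none of the genes below would be counted. After turning, the 2 arrays correlated at -0.231 over 14878 genes, with 21.3% of genes above 0 on both arrays and 21.6% below 0 on both, so the arrays disagreed in sign for most genes.

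The striatum is the input nucleus of the basal ganglia. Most of its neurons are GABAergic projection neurons of a direct pathway, marked by the dopamine receptor Drd1 and dynorphin, and of an indirect pathway, marked by the dopamine receptor Drd2, the adenosine receptor Adora2a and enkephalin. It is bordered by cortex, claustrum, white matter and the lateral ventricle with its choroid plexus, whose markers can enter a dissected sample. The comparison asks what differs in striatal tissue outside the target after radiation to the other hemisphere.

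Of 14878 genes, 255 (1.71%) were higher and 217 (1.46%) lower in the un-irradiated right striatum than in the control right striatum. At 2-fold on both arrays, 75 were higher and 56 lower. The arrays agreed to within 0.1 of their mean for 92 of the higher and 62 of the lower genes. Over all genes the median distance was 0.188. The share of all genes within 0.1 was not taken, so these values do not tell whether counted genes were more even than others. One probe alone stood behind 79.6% of the higher and 83.9% of the lower genes, against 62.0% of all genes. Olfactory receptors, a family with no known role in striatum, give a measure of the spread among probes: 20 of 1095 (1.83%) were higher and 28 (2.56%) lower, close to or above the share of all genes. The text therefore goes by groups of genes with known roles and by genes with at least 2 probes past the threshold in the same direction. The gene lists and their members were chosen with earlier results of these data known. A list set against all genes therefore describes these values and is not independent support. Counts of list members below are to be read beside 1.71% higher and 1.46% lower over all genes.

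**Figure D1:**
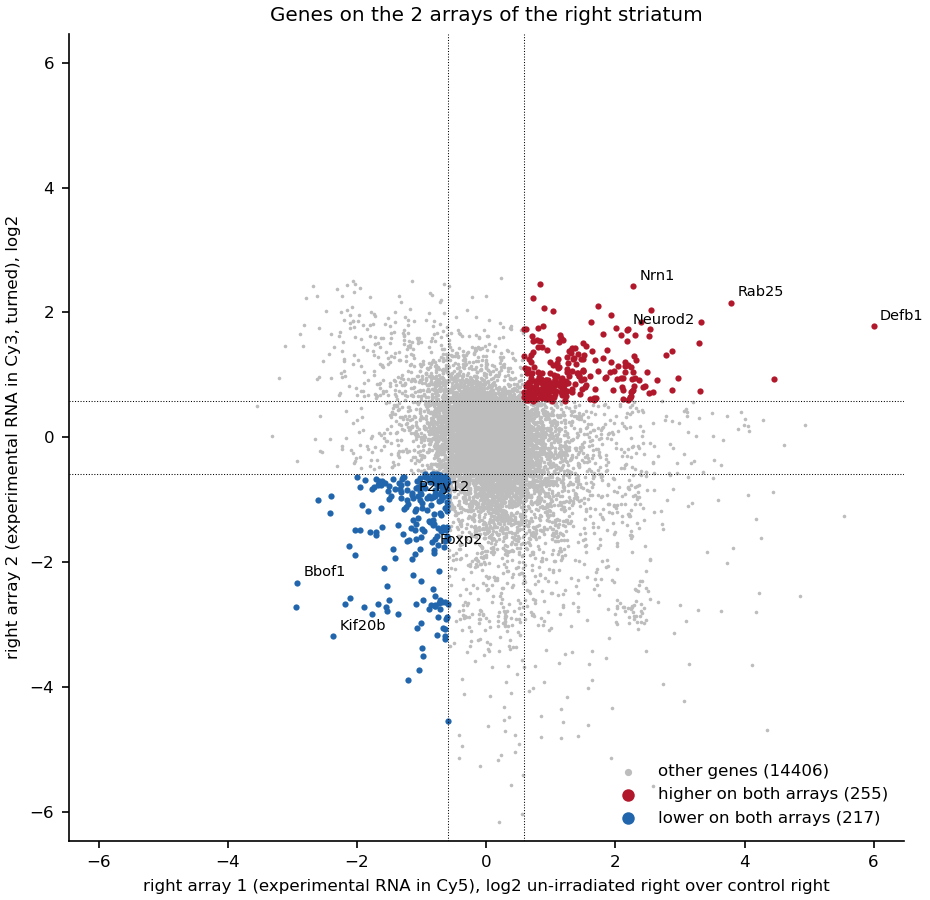
Each point is a gene, placed by its log2 ratio of un-irradiated right over control right on array 1 (x axis, experimental RNA in Cy5) and array 2 (y axis, experimental RNA in Cy3, sign turned). Dotted lines mark 1.5-fold; the 255 genes higher on both arrays are red, the 217 lower are blue, and most remaining genes run from upper left to lower right, where the arrays disagree in sign.

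Markers of striatal projection neurons lay mostly below 0 in the right striatum of irradiated rats. Of 46 measured, 8 (17.4%) were counted as lower and 0 as higher, against 1.46% and 1.71% of all genes. Below 0 on both arrays were 32, against 21.6% of all genes. The median of the list was -0.46, with -0.54 on array 1 and -0.34 on array 2, against a median of -0.01 over all genes. With each array centred on its median 5 were counted as lower, since Drd1, Adora2a and Adcy5 lie near the threshold. Fewer such neurons in the sample and less RNA in each of them cannot be told apart in bulk tissue.

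Transcription factors were among the lowest. Foxp2, a forkhead factor of striatal and deep cortical neurons, stood at -0.81 and -1.81, with a mean of -1.31 ± 0.50. Foxp1, its relative in projection neurons, stood at -1.01 and -0.92 (mean -0.96 ± 0.05 over 2 probes). Its non-RefSeq probe was at -1.08 and -1.30 and its RefSeq mRNA probe at -0.94 and -0.53, so it was not counted with RefSeq mRNA probes alone. Ebf1, a factor of direct pathway neurons, was at -0.54 and -1.11 and Rarb, a retinoic acid receptor, at -0.43 and -1.59, neither of them past the threshold on array 1.

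Receptors and signalling enzymes of both pathways were among the lower genes. Gpr6, an orphan receptor of indirect pathway neurons, stood at -0.67 and -0.96 (mean -0.82 ± 0.14), and Adora2a at -0.95 and -0.59 (mean -0.77 ± 0.18), with 1 probe at -0.86 and -0.61 and the other, just short of the threshold on array 2, at -1.05 and -0.57. Drd1, the receptor of the direct pathway, stood at -0.64 and -0.62 (mean -0.63 ± 0.01), while Drd2, that of the indirect pathway, was at -0.51 and -0.39 and did not pass. Rgs9, which shortens G protein signals at dopamine receptors, stood at -0.77 and -0.73 (mean -0.75 ± 0.02). Adcy5, the main adenylyl cyclase of striatum, stood at -0.77 and -0.59 (mean -0.68 ± 0.09). Members of both pathways therefore appear in the group, and the direct pathway was not set apart from the indirect one by these values.

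Peptides of the projection neurons were on the same side of 0. Pdyn, which encodes dynorphin, stood at -0.68 and -0.80 (mean -0.74 ± 0.06). Tac1, the precursor of substance P, was at -0.55 and -0.83 and Penk, the precursor of enkephalin, at -0.34 and -0.59 over 2 probes, and neither passed. Ppp1r1b (DARPP-32), the phosphatase inhibitor that defines these cells, was far from even between arrays, at -1.47 and -0.26. The exceptions to the group were Kcnh4, a potassium channel, at 0.45 and 0.32, and Ido1, an enzyme of tryptophan breakdown, at 0.28 and 0.58, the 2 members above 0 on both arrays.

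Cartpt, the precursor of the CART peptides that the ventral striatum and hypothalamus make, stood at -1.10 and -1.17 (mean -1.14 ± 0.04). The promoters of Gpr6 and Cartpt are shown because both lower genes hold the full cAMP response element, the binding sequence of CREB, in the 250 bases before their start. Capitals mark its 8 letters, TGACGTCA, which read the same on both strands. These bases are from RefSeq, build GRCr8, 5′ to 3′ on the gene's strand.
Gpr6, chr20:46075252-46075501, minus strand: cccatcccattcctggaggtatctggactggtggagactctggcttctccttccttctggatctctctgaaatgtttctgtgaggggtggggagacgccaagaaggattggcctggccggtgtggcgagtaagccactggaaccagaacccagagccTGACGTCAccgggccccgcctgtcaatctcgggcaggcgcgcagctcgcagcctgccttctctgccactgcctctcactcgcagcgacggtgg
Cartpt, chr2:32991236-32991485, minus strand: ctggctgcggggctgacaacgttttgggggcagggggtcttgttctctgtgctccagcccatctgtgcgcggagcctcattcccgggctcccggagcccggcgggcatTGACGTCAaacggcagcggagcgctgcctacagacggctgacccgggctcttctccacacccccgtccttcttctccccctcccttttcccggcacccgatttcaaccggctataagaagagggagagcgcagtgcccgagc
The element starts 93 bases before the start of Gpr6 and 142 before that of Cartpt. It is in 1.59% of all 33469 promoters, in 4 of 182 (2.20%) of the lower genes with an entry and in 8 of 214 (3.74%) of the higher ones. The match describes these letters and says nothing of binding.

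Markers of cortical and other pallial excitatory neurons lay on the other side of 0. Of 61 measured, 10 (16.4%) were higher and 2 (3.28%) lower, against 1.71% and 1.46% of all genes. The 10 include Vip, a peptide of interneurons and not of excitatory neurons. The median was 0.21, with 0.17 on array 1 and 0.20 on array 2. Above 0 on both arrays were 29 of them, against 21.3% of all genes. The 2 lower members, Foxp2 and Epha4, are made in striatum as well. Epha4, an ephrin receptor, was at -0.60 and -1.09, but only 1 of its 5 probes passed and the median over them did not.

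Of the 4 highest of these genes, 3 were close on both arrays, and Neurod2, given below, was less even. Nrn1 (neuritin), an activity-regulated protein of growing and mature neurites, stood at 2.27 and 2.42 (mean 2.35 ± 0.07). Olfm1, a secreted glycoprotein of neurons (olfactomedin 1), stood at 1.94 and 1.96 (mean 1.95 ± 0.01). Cck, the precursor of cholecystokinin, which cortical cells make in quantity, stood at 1.54 and 1.46 (mean 1.5 ± 0.04). All 3 were near 0 or below it on the left, at means of 0.03, -0.02 and -0.37.

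Slc17a7, which encodes the vesicular glutamate transporter 1 of cortical neurons, is held by 2 probes. It stood at 1.45 and 0.98 (mean 1.21 ± 0.23), with 1 probe at 1.39 and 1.01 and the other at 1.51 and 0.95. Cpne4, a calcium-dependent phospholipid-binding protein, stood at 1.09 and 1.15 (mean 1.12 ± 0.03), and 2 of its 3 probes passed. Vip, a peptide of cortical interneurons, stood at 0.85 and 0.94 (mean 0.89 ± 0.04), but 1 of its 2 probes passed (1.68 and 0.98) and the other did not (0.02 and 0.90). The activity-regulated pentraxin Nptx2 stood at 0.70 and 0.72 (mean 0.71 ± 0.01). Nptx2 did not pass with its RefSeq mRNA probe alone (0.47). Nptxr, the receptor of the neuronal pentraxins, was chosen by rank and not by a list, and stood at 1.5 and 1.51.

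Of the basic helix-loop-helix factors of excitatory neurons, Neurod2 stood at 2.18 and 1.72 (mean 1.95 ± 0.23), Neurod1 at 1.85 and 0.96 (mean 1.41 ± 0.45) and Bhlhe22 at 1.10 and 1.25 (mean 1.18 ± 0.07). Bhlhe22 rests on 1 of its 2 probes, which was at 2.12 and 2.48 while the other was at 0.09 and 0.02. Neurod6, of the same family, was at 1.16 and 0.25 and did not pass. Defining cortical factors were less even: Tbr1 was at -0.17 and 0.68, Emx1 at -0.22 and 0.46, and Fezf2 at 0.11 and 0.19. Camk2a, an abundant kinase of excitatory neurons, was at 0.15 and 0.27.

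Among 64 transcription factors of telencephalic neurons 6 were higher and 3 lower, with a median of 0.01. Besides Neurod1, Neurod2 and Bhlhe22, the higher ones were nuclear receptors. Nr2f2 (COUP-TFII), found in amygdala and in interneurons of caudal origin, stood at 1.73 and 2.10 (mean 1.91 ± 0.18). Nr2f1 (COUP-TFI), its relative in caudal cortex, stood at 0.92 and 0.91 over 3 probes (mean 0.92 ± 0.00), with 2 of the 3 past the threshold. Nr4a2 (Nurr1), which marks claustrum and deep cortex, stood at 1.09 and 1.18 (mean 1.14 ± 0.05). The lower ones were Foxp2, Foxp1 and Mef2d (-1.02 and -0.65), and Mef2d was not counted after quantile normalisation.

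**Figure D2:**
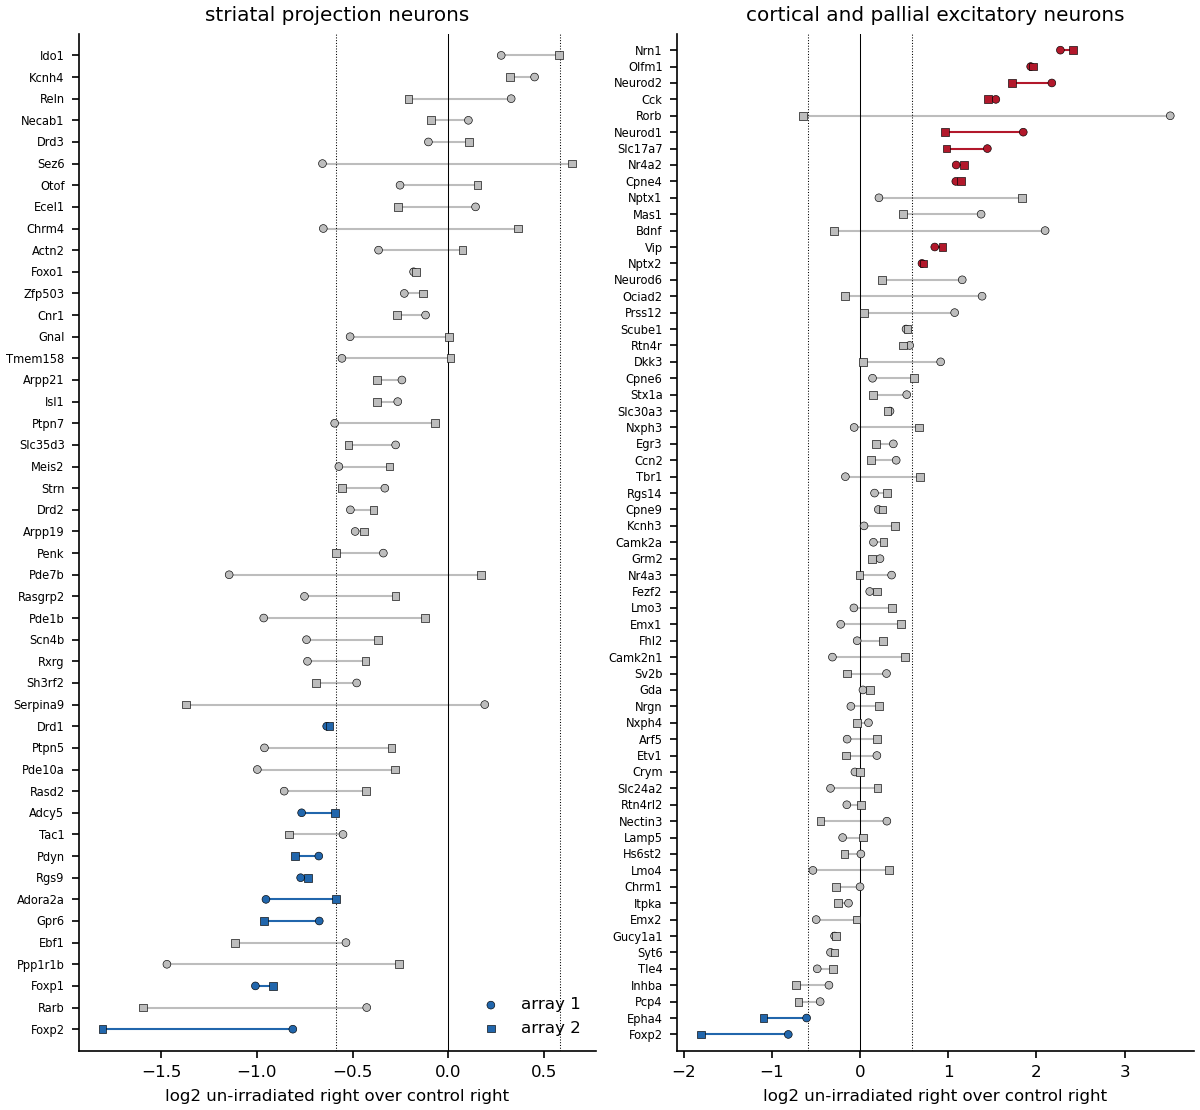
Markers of striatal projection neurons (left panel) and of cortical and pallial excitatory neurons (right panel), ordered by mean. Circles are array 1 and squares array 2 of the right striatum, as log2 of un-irradiated right over control right; blue and red mark genes lower and higher past 1.5-fold (dotted lines) on both arrays. Most striatal markers lie left of 0, and 10 cortical markers lie past 1.5-fold to the right.

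Markers of claustrum, endopiriform nucleus and amygdala gave 4 higher and 3 lower of 32, with a median of 0.03. Grp (gastrin-releasing peptide), a peptide of amygdala and deep cortex, stood at 2.04 and 1.14 (mean 1.58 ± 0.45). Aromatase (Cyp19a1), which makes oestrogen in amygdala and hypothalamus, stood at -2.12 and -1.74, and Cbln4, a secreted synapse organiser, at -1.06 and -0.79. Of 41 markers of thalamus, septum and hypothalamus 0 were higher and 1, Cartpt, lower. Markers of interneurons and monoamine neurons gave 2 higher (Vip and Cck, both also on the cortical list) and 1 lower (Tph2, tryptophan hydroxylase of serotonin neurons, at -1.30 and -0.66) of 37. Tph2 was not counted after quantile normalisation. Gad1, the enzyme of GABA synthesis, was at -0.12 and -0.04. The part that dissection or tissue makeup has in these neuronal results was not tested.

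Genes with at least 2 probes past the threshold in 1 direction were mostly higher. Of 5654 genes with 2 or more probes, 26 had at least 2 probes past the threshold in 1 direction and none in the other, 22 upward and 4 downward. By the mean over all probes, 16 of the 22 and 2 of the 4 were also counted. The remaining probes of such a gene may differ: 1 probe of Dlgap1, among the 22, was at 0.40 and -2.60, and 1 of Arpp21, among the 4, at 0.28 and 0.58. More genes upward than downward were also found without turning, 45 against 12. Elavl4 (HuD), an RNA-binding protein of neurons, had 3 of 4 probes past it and stood at 1.01 and 0.88 (mean 0.94 ± 0.07). Vsnl1 (visinin-like 1), a neuronal calcium sensor, stood at 1.09 and 0.74. Epha5, an ephrin receptor, stood at 0.98 and 1.03 (mean 1.01 ± 0.02). All 3 probes of Fam81a passed, at means of 0.86, 0.92 and 0.88. Grm8, a presynaptic glutamate receptor, stood at 1.5 and 1.07, and Iqsec3, a guanine exchange factor of inhibitory synapses, at 1.22 and 0.59.

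**Figure D3:**
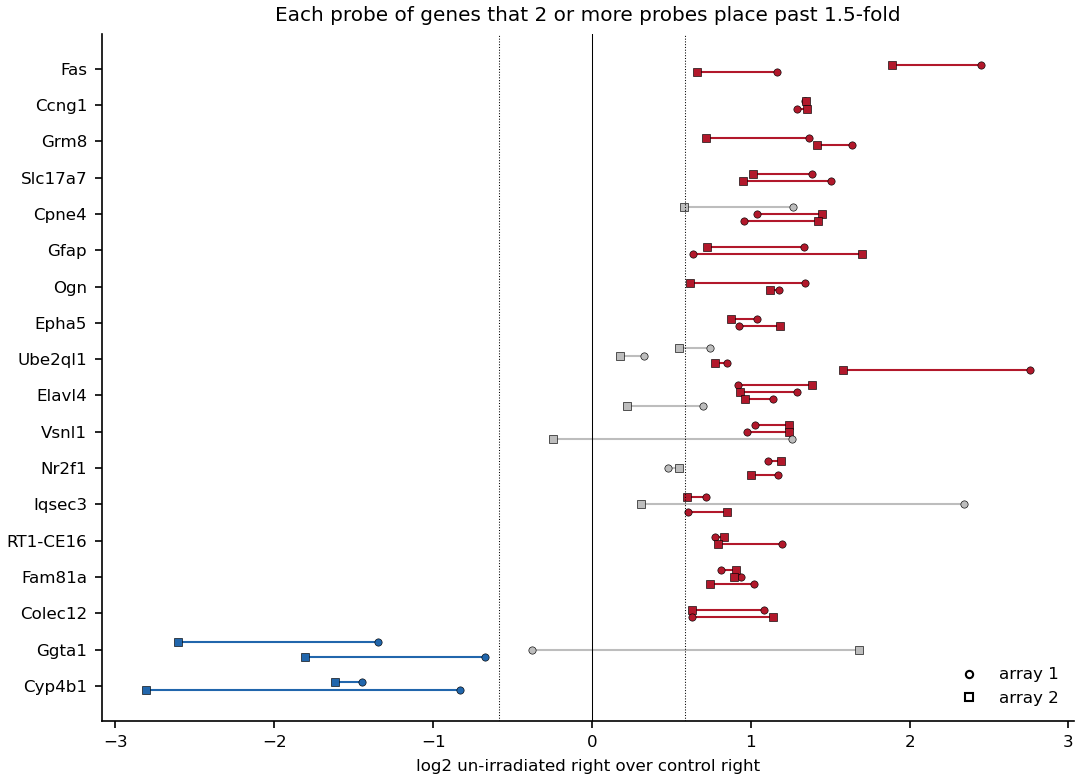
Each line is a probe of a gene that 2 or more probes place past 1.5-fold (dotted lines) on both arrays of the right striatum, in 1 direction, and that is counted by its mean; circles are array 1, squares array 2, in log2 of un-irradiated right over control right. Coloured probes passed on both arrays and grey ones did not. Ccng1 and Fam81a have closely placed probes, whereas 1 probe of Ggta1 lies below 0 on array 1 and above it on array 2.

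Of 71 potassium channel genes 5 (7.04%) were higher, against 1.71% of all genes, and 0 lower, with a median of 0.05. Kcnj13, an inward rectifier of choroid plexus, stood at 2.53 and 1.73 (mean 2.13 ± 0.40) and Kcnip3, a calcium-binding partner of Kv4 channels, at 1.24 and 1.28 (mean 1.26 ± 0.02). Kcnc2 (2.46 and 0.82), Kcnj1 (2.30 and 0.95) and Kcne3 (2.22 and 0.64) were less even between arrays. Among 46 sodium and calcium channel genes 0 were higher and 0 lower.

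In the glutamate receptor list Grm8 was higher and Grid1 (-0.60 and -0.66) lower of 24. Grid1 was not counted after quantile normalisation. In the GABA and glycine receptor list Gabbr2, a subunit of the GABA-B receptor, was the 1 higher of 21, at 1.11 on each array. Of 75 genes of synaptic vesicles and SNARE proteins 2 (2.67%, against 1.71% of all genes) were higher, Slc17a7 and the phosphatase Synj2 (1.34 and 1.26), and 0 lower. Among 75 regulators and enzymes of G protein signalling 1 was higher, the calcium-stimulated cyclase Adcy8 (0.91 and 0.72), and 4 lower: Rgs9, Adcy5, the phosphodiesterase Pde6b and the kinase Prkch. Neither probe of Pde6b passed on its own (-2.79 and 2.06, and -0.21 and -4.04), and it was not counted with RefSeq mRNA probes alone. Sstr1, a somatostatin receptor, was among the 25 highest genes and stood at 1.80 and 1.65. Neuropeptide genes gave 4 higher (Grp, Cck, Pnoc and Vip) and 2 lower (Cartpt and Pdyn) of 44. Pnoc, the precursor of nociceptin, stood at 1.22 and 0.86 (mean 1.04 ± 0.18).

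Markers of meninges and fibroblasts lay mostly above 0. Of 56 measured, 8 (14.3%) were higher and 1 (1.79%), Pdgfra, lower, against 1.71% and 1.46% of all genes. The median was 0.22 (0.32 on array 1 and 0.13 on array 2), with 25 above 0 on both arrays. Fmod (fibromodulin), a small leucine-rich proteoglycan, stood at 1.49 and 1.06 (mean 1.28 ± 0.22). Ogn (osteoglycin), of the same family, stood at 1.26 and 0.87 (mean 1.06 ± 0.20), and both of its probes passed. Aldh1a2, the retinoic acid synthase of meninges, stood at 0.88 and 1.78 (mean 1.33 ± 0.45) and Cyp26b1, which breaks retinoic acid down, at 0.64 and 0.61 (mean 0.63 ± 0.01). The probes of Cyp26b1 disagreed, at 1.62 and 0.72 for 1 and -0.34 and 0.50 for the other, and it was not counted after quantile normalisation. Gjb2, a gap junction protein of meninges and astrocytes, stood at 0.88 and 0.84. The growth factor Igf2 of meninges and choroid plexus stood at 0.60 and 1.11, and the matricellular Ccn3 at 1.84 and 0.94. Igf2 was not counted after centring or after quantile normalisation. Slc6a20a, a solute carrier, stood at 0.73 and 0.65 and was not counted with RefSeq mRNA probes alone. Ptgds, the abundant prostaglandin D synthase of leptomeninges, was at 0.55 and 0.67 over 2 probes and Col1a1 at 0.36 and 0.61, and neither passed.

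Choroid plexus markers gave 3 higher and 0 lower of 48, with a median of 0.07. Besides Kcnj13 and Igf2 this was the iodide transporter Slc5a5 (0.59 and 0.64). Igf2 and Slc5a5 were not counted after centring or after quantile normalisation, which left 1 of the list counted as higher under each. Ttr (transthyretin), the defining product of that epithelium, was at 0.97 and 0.37 over 2 probes and did not pass. Folr1 was at -0.16 and -0.04 and Kcne2 at -0.40 and -1.14, so that defining markers were on both sides of 0. In the extracellular matrix list 3 were higher (Fmod, Ogn and the basement membrane protein Nid2) and 1 lower (the protease Adamts5) of 75. The part that adhering meninges have in these values was not tested.

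No marker of mature oligodendrocytes was counted, but most lay below 0. Of 38 measured, 0 passed in either direction and 31 lay below 0 on both arrays, against 21.6% of all genes, and the median was -0.31 (-0.36 on array 1 and -0.26 on array 2). Mobp, a myelin protein, was at -0.65 and -0.44 over 3 probes, Mbp (myelin basic protein) at -0.76 and -0.10 and Mog, a myelin surface protein, at 0.10 and 0.27. The left striatum had a median of -0.24 for the same list. Of 24 markers of oligodendrocyte precursors 1 was lower, Pdgfra, the growth factor receptor of these cells, at -0.83 and -0.96 (mean -0.90 ± 0.07). The list's median was -0.22, against -0.38 on the left, where Pdgfra averaged -2.45.

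Among microglial and astrocyte markers 1 each was counted. P2ry12, the ADP receptor of resting microglia, stood at -1.14 and -0.97 (mean -1.05 ± 0.08) and was the 1 counted of 44 microglia and macrophage markers, whose median was -0.06. On the left P2ry12 averaged -2.67. Other defining microglial genes did not pass: Tmem119 was at -0.60 and -0.36, Cx3cr1 at -0.01 and -0.20 and Aif1 at -0.15 and -0.21. Of 39 astrocyte markers only Gjb2 was counted, and the median was -0.09, against -0.34 on the left. Endothelial and pericyte markers (45) and ependymal markers (21) had 0 counted in either direction. Of the endothelial and pericyte markers, 18 lay below 0 on both arrays and 4 above, with a median of -0.07.

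**Figure D4:**
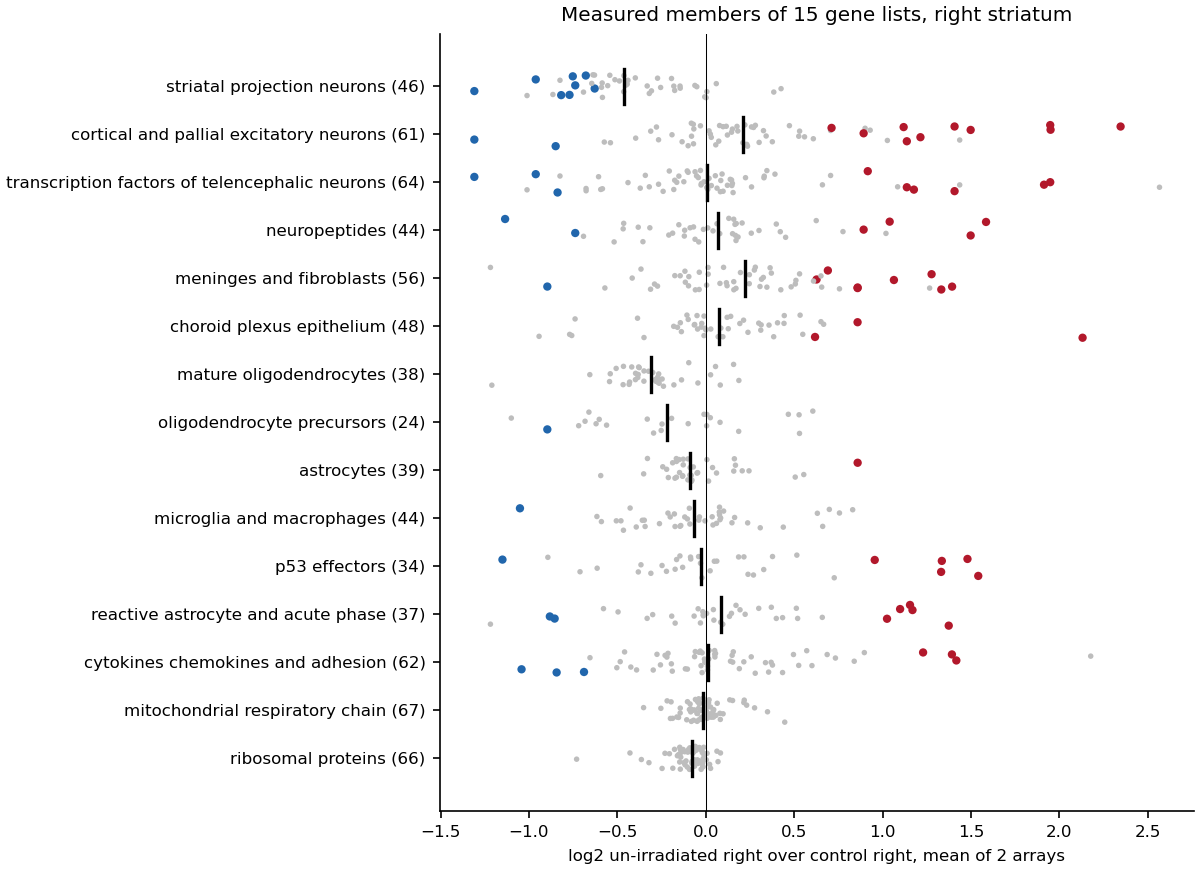
Every measured member of 15 gene lists (number in brackets) by its mean log2 ratio of un-irradiated right over control right. Red and blue points passed 1.5-fold upward and downward on both arrays, grey points did not, and black bars are list medians. Striatal projection neurons have the lowest median (-0.46) of the lists shown, followed by mature oligodendrocytes (-0.31).

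DNA damage activates the transcription factor p53, and some of its effectors were higher in the right striatum of irradiated rats. Of 34 measured, 5 (14.7%) were higher and 1 (2.94%) lower, against 1.71% and 1.46% of all genes. The median was -0.03, against -0.01 over all genes. Fas, a death receptor, stood at 1.81 and 1.28 (mean 1.54 ± 0.26), with 1 probe at 2.45 and 1.89 and the other at 1.16 and 0.66. Cdkn1a, the cell cycle inhibitor p21, stood at 1.92 and 1.04 (mean 1.48 ± 0.44), with 1 probe at 2.38 and 2.17 and the other, which did not pass, at 1.45 and -0.08. Ccng1 (cyclin G1) stood at 1.32 and 1.35 (mean 1.33 ± 0.02), and both probes passed. Phlda3, an inhibitor of Akt, stood at 1.13 and 1.53, and Bbc3 (Puma), a proapoptotic protein, at 1.07 and 0.84. The lower member was the death receptor Tnfrsf10b, at -1.56 and -0.74. Of 42 apoptosis and necroptosis genes 2 were higher (Fas and Bbc3) and 1, Tnfrsf10b, lower.

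Other p53 effectors did not pass. Bax was at 0.50 and 0.53, just under the threshold on both arrays, Mdm2, the ubiquitin ligase that degrades p53, at -0.09 and 0.52 over 3 probes, and Gadd45a at -0.04 and -0.31. On the left the 5 higher members had larger means, 2.40 for Fas, 2.01 for Cdkn1a, 2.0 for Ccng1, 1.84 for Phlda3 and 1.5 for Bbc3. Of the p53 list 7 members were higher and 0 lower on the left. The difference between the sides was not tested.

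The promoters of Ccng1 and Cdkn1a are shown because both hold a match to the p53 half-site in the 250 bases before the start, in capitals. The sequences are from RefSeq, build GRCr8, 5′ to 3′ on the gene's strand.
Ccng1, chr10:25684877-25685126, minus strand: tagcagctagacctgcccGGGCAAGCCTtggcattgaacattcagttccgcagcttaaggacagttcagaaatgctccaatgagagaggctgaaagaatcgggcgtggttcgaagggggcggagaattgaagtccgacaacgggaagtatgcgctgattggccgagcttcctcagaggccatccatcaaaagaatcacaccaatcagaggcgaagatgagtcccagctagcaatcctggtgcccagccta
Cdkn1a, chr20:7150682-7150931, plus strand: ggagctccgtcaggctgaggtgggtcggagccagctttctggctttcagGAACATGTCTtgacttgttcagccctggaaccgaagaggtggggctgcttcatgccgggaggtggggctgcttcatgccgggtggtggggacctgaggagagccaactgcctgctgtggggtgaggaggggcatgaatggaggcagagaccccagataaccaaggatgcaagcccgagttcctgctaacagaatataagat
The match starts 232 bases before the start of Ccng1 and 201 before that of Cdkn1a. A half-site, searched on its own and reading the same on both strands, is in 6.64% of all promoters, in 18 of 214 (8.41%) of the higher genes and in 15 of 182 (8.24%) of the lower ones, so it is common. A full p53 site needs a pair of half-sites. Only exact half-sites were searched and marked. In both promoters printed here, the bases directly beside the match come close to a second half-site without matching it exactly. The match shows neither binding nor its absence.

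Mgmt, which removes alkyl groups from guanine in DNA, stood at 2.08 and 1.65 (mean 1.86 ± 0.22) and was the 1 of 39 DNA repair and checkpoint genes counted. It averaged 2.37 on the left. Cell cycle genes gave 3 higher (Tacc3, Cdk6 and Aurkb) and 3 lower (Kif20b, Kif15 and Cdk1) of 66. Cdk1 was not counted after quantile normalisation. Kif20b, a kinesin of cell division, stood at -2.37 and -3.19 and Tacc3, a spindle protein, at 3.32 and 1.85, while Mki67, the usual marker of dividing cells, was at -2.06 and -0.25 and did not pass. The linker histone H1f5 (-1.90 and -2.73) was the 1 of 14 histone genes counted.

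Genes of astrocyte reaction and the acute phase gave 5 (13.5%) higher and 2 (5.41%) lower of 37, with a median of 0.08. The shares over all genes were 1.71% and 1.46%. Gfap, the filament protein that marks reactive astrocytes, stood at 0.98 and 1.21 (mean 1.10 ± 0.11), and both probes passed. Bcl3, a partner of NF-kappa-B, stood at 1.42 and 1.33 (mean 1.37 ± 0.05), and the transcription factor Cebpd at 1.05 and 1.0 (mean 1.02 ± 0.03). Aspg, an asparaginase, stood at 1.53 and 0.81. Lcn2 (lipocalin 2), a secreted acute phase protein, stood at 1.26 and 1.05 over 2 probes, but its RefSeq mRNA probe alone was at 0.33 and did not pass. The lower members were Osmr, the oncostatin M receptor (-1.07 and -0.70), and Ggta1, a galactosyltransferase (-0.80 and -0.91). The 3 probes of Ggta1 were at -1.35 and -2.60, -0.38 and 1.68, and -0.67 and -1.81, so its close array values average uneven probes. Neither Osmr nor Ggta1 was counted after quantile normalisation, which left 0 of the list lower. Vim (vimentin) was at 0.25 and 0.55 and Serpina3n at 0.09 and -0.22, so not all markers of reaction went with Gfap.

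Of 62 cytokine, chemokine and adhesion genes 3 (4.84%) were higher and 3 (4.84%) lower, against 1.71% and 1.46% of all genes, and the median was 0.01. Ccl3, which attracts monocytes, stood at 1.52 and 1.31 (mean 1.42 ± 0.10) and Ccl19, which attracts lymphocytes, at 1.73 and 1.06. Ccr1, a receptor of Ccl3, stood at 1.69 and 0.77. The lower ones were Cxcr2 (-1.31 and -0.77), Cxcl11 (-0.77 and -0.91) and Ccl7 (-0.73 and -0.65). Neither probe of Ccl7 passed on its own (-0.43 and -1.21, and -1.03 and -0.09), and it was not counted after quantile normalisation. Il1b was at 1.07 and 0.13, Tnf at -0.51 and 0.61 and Icam1 at 0.59 and 0.17.

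In the interferon list Isg15, a ubiquitin-like protein, was higher at 0.69 and 0.96 and Ifit1 lower at -0.75 and -1.73, of 52 with a median of 0.05. Each is 1.92% of the list, near the 1.71% higher and 1.46% lower of all genes. The class I gene RT1-CE16 was the 1 of 36 antigen presentation genes counted, at 0.98 and 0.81 (mean 0.90 ± 0.09), and both probes passed. Near-identical sequences in this family mean that a probe may read another copy. That list's median was 0.12, with 13 members above 0 on both arrays and 4 below. C8a, a component of the terminal complement complex made mainly in liver, was the 1 of 33 complement genes counted (-1.05 and -1.29). The complement list had a median of 0.08, with 14 members above 0 on both arrays and 3 below. After centring 1 complement gene was counted as higher, and 2 were after quantile normalisation or with RefSeq mRNA probes alone.

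Stress and housekeeping lists had medians between -0.08 and 0.05. Of 46 heat shock and folding genes 2 were higher, Hspa1a (0.66 and 0.89) and Hspa2 (0.89 and 0.78), and 0 lower, with a median of 0.04. Of the 2 probes of Hspa1a 1 passed, and it was not counted after quantile normalisation. The arginine transporter Slc7a3 (0.95 and 0.92) was the 1 of 47 genes of the unfolded protein and integrated stress response. That is 2.13% of the list, against 1.71% of all genes higher. Among 50 immediate early and activity genes 3 were higher, all of them also cortical markers (Nrn1, Nr4a2 and Nptx2), while Fos was at -0.49 and 0.37, Arc at -0.28 and 0.05 and Egr1 at 0.08 and 0.05. The glucocorticoid list gave 2 higher, Cdkn1a and Lcn2, of 35, whereas its textbook targets Fkbp5 (-0.23 and 0.12) and Tsc22d3 (-0.16 and 0.10) were near 0. Oxidative defence (47), circadian clock (20), respiratory chain (67), cholesterol (33) and ribosomal protein genes (66) had 0 counted. Ribosomal protein genes had a median of -0.08, and 35 of 66 lay below 0 on both arrays and 3 above. Cholesterol genes also had a median of -0.08, with 17 of 33 below 0 on both arrays and 2 above, against 21.6% and 21.3% of all genes.

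The remaining genes at the top and bottom of the ranking rested on 1 probe each, except C1ql3 and Gabpb1, and came from many functions. Upward they included Rab25, a small GTPase of epithelia (3.79 and 2.16), Slc9a2, a sodium-proton exchanger (2.20 and 1.73), Zbtb46, a transcription factor of dendritic cells (2.0 and 1.76), and Pnck, a neuronal kinase (1.64 and 1.38). C1ql3, a secreted synaptic protein, stood at 2.87 and 1.38, but 1 of its 2 probes passed (2.31 and 2.47) and the other did not (3.44 and 0.29). Defb1, a defensin, reached 6.0 on array 1, against 1.78 on array 2. Downward they included Or5al1, an olfactory receptor (-2.94 and -2.73), Bbof1 (-2.93 and -2.33) and Ccdc63 (-2.11 and -2.58), genes of motile cilia. Gabpb1, a transcription factor subunit, was counted by its mean (-1.37 and -1.40), but its 2 probes disagreed, at -0.87 and 1.91 for 1 probe and -1.86 and -4.72 for the other. Of 46 motile cilia genes 2 were higher and 4 lower. Of 53 keratin and epithelial junction genes 2 were higher, Rab25 and Defb1, and 0 lower. Blood cell markers gave 2 higher (Cd4 and Lcn2) and 2 lower (Cd300c2 and Cxcr2) of 37, and markers of pituitary, pineal and other tissue 1 higher (Fshb) and 2 lower (Gcg and Pnlip) of 38. Gcg was not counted after quantile normalisation.

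The 2 sides share part of their genes. On the left 175 genes (1.18%) were higher and 153 (1.03%) lower in irradiated than in control striatum. Higher on both sides were 32 genes, 12.5% of the right and 18.3% of the left list. Lower on both were 20, 9.22% of the right and 13.1% of the left. The rats behind the 2 sides may be the same animals, so the sides are not independent. The genes higher on the right (median 1.12) had a median of 0.14 on the left, and those lower on the right (median -1.13) had one of -0.12.

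The genes higher on both sides included the p53 effectors Fas, Cdkn1a, Ccng1, Phlda3 and Bbc3 together with Mgmt, Gfap, Bcl3, Cebpd, Aspg, Ccl3, Ccl19, Isg15 and RT1-CE16. Most of them had the larger mean on the left, as Pla1a, a phospholipase, with 1.09 on the right and 2.27 on the left, Bcl3 with 1.37 and 2.39, and Cebpd with 1.02 and 1.92. Gfap was alike, at 1.10 on the right and 1.16 on the left, and Grp was 1.58 on the right and 1.17 on the left. P2ry12, Pdgfra and Rgs9 were lower on both sides, Rgs9 at -0.75 on the right and -0.81 on the left.

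Neuronal and meningeal groups were not shared in the same way. The cortical list had 10 higher on the right and 0 on the left, with medians of 0.21 and -0.07. The striatal list had 8 lower on the right and 2 on the left, with medians of -0.46 and -0.19. Meningeal markers gave 8 higher on the right and 1 on the left, where 7 were lower, with medians of 0.22 and -0.14. Of the 8, Igf2, Cyp26b1 and Slc6a20a each dropped out under at least 1 alternative processing. No test of these differences was possible.

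**Figure D5:**
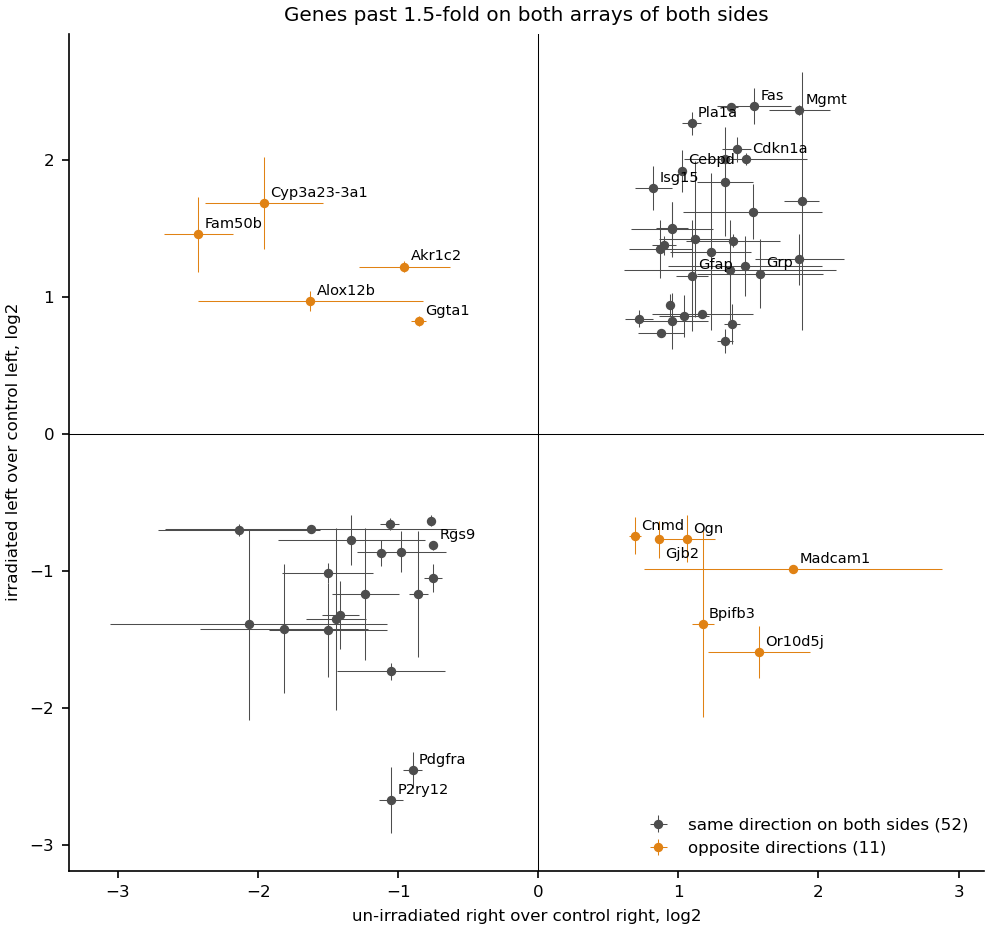
Genes past 1.5-fold on both arrays of both sides, by their mean log2 ratio on the right (x axis, un-irradiated over control) and on the left (y axis, irradiated over control); bars reach to the 2 arrays. The 52 grey genes go the same way, with p53 effectors and Mgmt at upper right and P2ry12 and Pdgfra at lower left, and the 11 orange genes go opposite ways.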

How the data were processed

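Per the labels, 4 two-colour Agilent arrays were hybridised, and the authors used Agilent Feature Extraction 8.1 per the submitters' processing notes; its settings are not given here. The authors deposited 1 ratio per feature, read here as log10 of red over green; base, direction and centring are unstated. The medians of the deposited log10 values were 0.00832 and 0.0111 on right arrays 1 and 2. Values were multiplied to log2 and array 2 was turned, so that every value is experimental over control. No intensities were used, so background, brightness and saturation are unknown, and precision is limited by there being 2 arrays a side.

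Gene names come from GEO's annotation of the platform, with symbols updated by Entrez identifier from RefSeq (GRCr8): 23535 features had 1 gene, 48 several and 20045 none, which gave 14878 genes, 9224 with 1 probe. The gene value is the mean over its probes. No test was run, since there is 1 replicate a side. Named genes are the 25 highest and 25 lowest counted genes by the smaller of their array values (a selection of them in the text), genes that 2 or more probes agree on, counted members of 48 gene lists, and defining members of these lists. The comparison, the lists and their members were chosen with earlier results of these data known. The counting code was run on simulated data with large planted changes and a dye effect of opposite sign on the paired arrays. That run checks the arithmetic and does not measure how often unchanged genes pass in these arrays. Python 3.11.15, pandas 2.3.3 and numpy 2.4.6 were used. Alternatives were centring, quantile normalisation, another threshold, single arrays, other probe summaries, and other readings of direction and base.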

Additional observations from a re-analysis of the deposited data

Results flagged for a closer look

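The 11 genes below were past 1.5-fold on both arrays of each side but in opposite directions, so every array of one side moved one way and every array of the other side the opposite way; the difference between the sides was not tested. Of these, 6 came from the 255 genes higher on the right and were lower on the left, where 1.03% of all genes were lower. The meningeal proteoglycan Ogn averaged 1.06 on the right and -0.76 on the left, with both of its probes past the threshold on the right. The gap junction protein Gjb2 averaged 0.86 on the right and -0.77 on the left. Cnmd (chondromodulin) averaged 0.69 on the right and -0.74 on the left, the endothelial adhesion molecule Madcam1 1.82 and -0.99, Bpifb3 1.17 and -1.38, and the olfactory receptor Or10d5j 1.57 and -1.59. The arrays were uneven for Madcam1 on the right (2.88 and 0.75) and for Bpifb3 on the left (-0.71 and -2.06).

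The other 5 came from the 217 genes lower on the right and were higher on the left, where 1.18% of all genes were higher. Ggta1 averaged -0.85 on the right and 0.82 on the left over 3 probes, of which 1 was at -0.38 and 1.68 on the right arrays. Its right side was not counted after quantile normalisation, which would take it out of this group. Cyp3a23-3a1, a cytochrome P450, averaged -1.96 on the right and 1.69 on the left, Akr1c2, a ketoreductase, -0.96 and 1.22, Alox12b, a lipoxygenase of skin, -1.63 and 0.97, and Fam50b -2.43 and 1.46. Alox12b was uneven between the right arrays, at -0.82 and -2.43. All of the 11 but Ogn and Ggta1 have 1 probe.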

How the results depend on the processing

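The counts of genes higher (255) and lower (217) on the right stayed within 1.5 times under centring, quantile normalisation, the median over probes and RefSeq mRNA probes alone. Quantile normalisation kept 238 of the higher and 172 of the lower genes. Where the rule itself was changed, the counts moved. At 2-fold on both arrays they were 75 and 56, with 12 and 2 shared with the left in the same direction. With the mean of the arrays past 1.5-fold they were 738 and 943, with 150 and 124 shared. Array 1 alone gave 1865 and 1214, with 770 and 529 shared, and array 2 alone gave 1320 and 2281, with 649 lower and 444 higher genes shared. Among genes with 2 or more probes only, 52 were higher and 35 lower, with 8 and 1 shared. Read as already turned, the values gave 701 and 408, with 210 and 122 shared, and none of the genes counted here. Read as log2, they gave 3 and 5, with 0 and 0 shared.

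Of 148 named genes counted, none changed sign under the alternatives run for them. Single arrays could not change a sign, since counted genes have the same sign on both arrays. Keeping only genes with 2 or more probes left their values as they were. The other readings of direction and base were not among the alternatives run for named genes. Centring left 6 uncounted, among them Adcy5, Adora2a and Drd1, quantile normalisation 16, the median over probes 1 (Epha4) and RefSeq mRNA probes 7 of the 141 measured. The median of the striatal list ran from -0.54 to -0.34 over these alternatives, and that of the cortical list from 0.14 to 0.23. No paired analysis was possible because each side has 1 replicate. Levels, background and saturation were not seen, so the dim probes could not be set aside.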

Other observations

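Features without a single named gene were counted more often than the named ones. Of 20093 such features, 510 (2.54%) were higher and 421 (2.10%) lower on the right, against 2.12% and 1.67% of the features with 1 gene. Of the genes with several probes that were counted, all probes lay on the same side of 0 for 47 of 52 higher and 27 of 35 lower genes. The genes were counted by the mean over these same probes, so the agreement is favoured by the selection. The share over all genes with several probes was not taken. The side of a probe is that of its mean over the arrays, so a Cdkn1a probe at 1.45 and -0.08 is taken as above 0.

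Further families were looked at for their spread. Of 47 vomeronasal receptors 1 (2.13%) was higher and 0 lower, and of 164 zinc finger proteins 2 (1.22%) were higher and 3 (1.83%) lower. Over all genes the shares were 1.71% higher and 1.46% lower. Of 86 solute carriers 4 were higher, among them the brain proline transporter Slc6a7 (1.33 and 1.44), and 1 lower, the organic cation transporter Slc22a3 (-0.66 and -1.76). Of 69 cytochrome P450 and glutathione transferase genes 2 were higher and 3 lower. Of 74 growth factor genes 2 (2.70%) were higher, Nrn1 and Igf2, and 1 (1.35%) lower, Wnt3 (-1.01 and -2.30).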
